A study of Mus musculus with 9 samples.

Results

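NR4A2 occupancy was examined at 43 genes of the intercalated disc and the costamere, the structures that join heart muscle cells to each other and anchor their sarcomeres to the membrane. A region belonged to a gene when it touched the gene's GRCm38 RefSeq span, extended by 10 kb on each side. This rule gave 194 regions at 38 of the genes, out of 16884 regions in all. Dmd, Sntb1, Cav3, Tln2 and Synm had none. The values are NR4A2 ChIP-seq signals (antibody clone 9D12) in heart ventricle from 3 NR4A2 mice and 3 control littermates. NR4A2 mice (Nr4a2-icTg) carried an Nr4a2 knock-in at ROSA26 and the tamoxifen-inducible Cre driver αMHC-MerCreMer, which acts in cardiomyocytes. Control mice were littermates with αMHC-MerCreMer, used as controls for Cre expression, so that Cre and tamoxifen were common to both groups. All received 1 intraperitoneal injection of tamoxifen (40 mg/kg) at 8 to 9 weeks of age and were studied on day 3. NR4A2 in this model is overexpressed, and only the Cre driver sets which cells make it.

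The intercalated disc holds adherens junctions and desmosomes, whose cadherins bind across the gap between cells and are tied through catenins and plakins to actin and desmin. In the heart many of these components mix in a common structure, the area composita. Costameres lie along the side of the cell, where the dystrophin complex and integrins link the cytoskeleton to laminin, and ankyrins and spectrins hold channels and pumps in place. NR4A2 is an orphan nuclear receptor that binds DNA as a monomer at an octamer element (NBRE) and can act without a known natural ligand.

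The mouse libraries held 637635 to 1035856 reads in regions in NR4A2 hearts and 549700 to 1027394 in control hearts, and 1 read was worth 0.955 to 1.81 CPM (read counts scaled to the reads in regions of each library). Control mouse 3 was the shallowest. Pearson correlations of log2(CPM + 1) across all regions were 0.824 to 0.857 among NR4A2 hearts, 0.877 to 0.913 among control hearts and 0.645 to 0.760 between the groups. Of the cardiomyocyte marker genes 7 of 8 held a region, compared with 4 of 5 endothelial, 2 of 6 fibroblast, 2 of 4 mural, 1 of 4 immune and 1 of 2 adipocyte markers. CPM are shares of a library's reads in regions, so they do not show a gain or loss common to the whole table. Whole ventricle was used, so more bound cells and more binding per cell cannot be told apart.

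At the disc and costamere genes, 34 of 194 regions (17.5%) had higher and 4 (2.06%) had lower signal in NR4A2 hearts (limma on log2(CPM + 1), Benjamini-Hochberg adjusted p under 0.05 over all 16884 regions). Over all regions 14.7% were higher and 3.17% lower, so the shares at these genes were near the background. The 34 higher regions had a median of 45.3 CPM in NR4A2 hearts and 11.2 CPM in control hearts, with log2 fold changes of 0.89 to 3.71. The 4 lower regions had medians of 150.0 CPM in NR4A2 hearts and 212 CPM in control hearts. The weakest of them, at Parva, had a mean of 54.5 CPM over all mice, against a median of 37.4 CPM over all regions. At least 1 higher region was found at 17 of the 43 genes and a lower one at 4, and Tjp1 had both. Over all 11151 protein-coding genes with a region, 14.2% had a higher and 6.24% a lower region. In 66 of the 194 regions (34.0%) the values of the mice in each group did not overlap, against 31.6% of all regions, and 32 of the 34 higher and 3 of the 4 lower regions were among them. The median log2 fold change was 0.17 over the 194 regions and -0.06 over all regions. With no scaling for depth, 18 of these regions were higher and none was lower. Higher regions then made up 99.0% of all calls in the table, against 82.2% with scaling. The median log2 fold change over all regions was then -0.09, against -0.06 with scaling, and the 4 lower regions had -0.50 to -0.91. Unscaled reads also carry the differences in depth between the libraries.

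**Figure D1:**
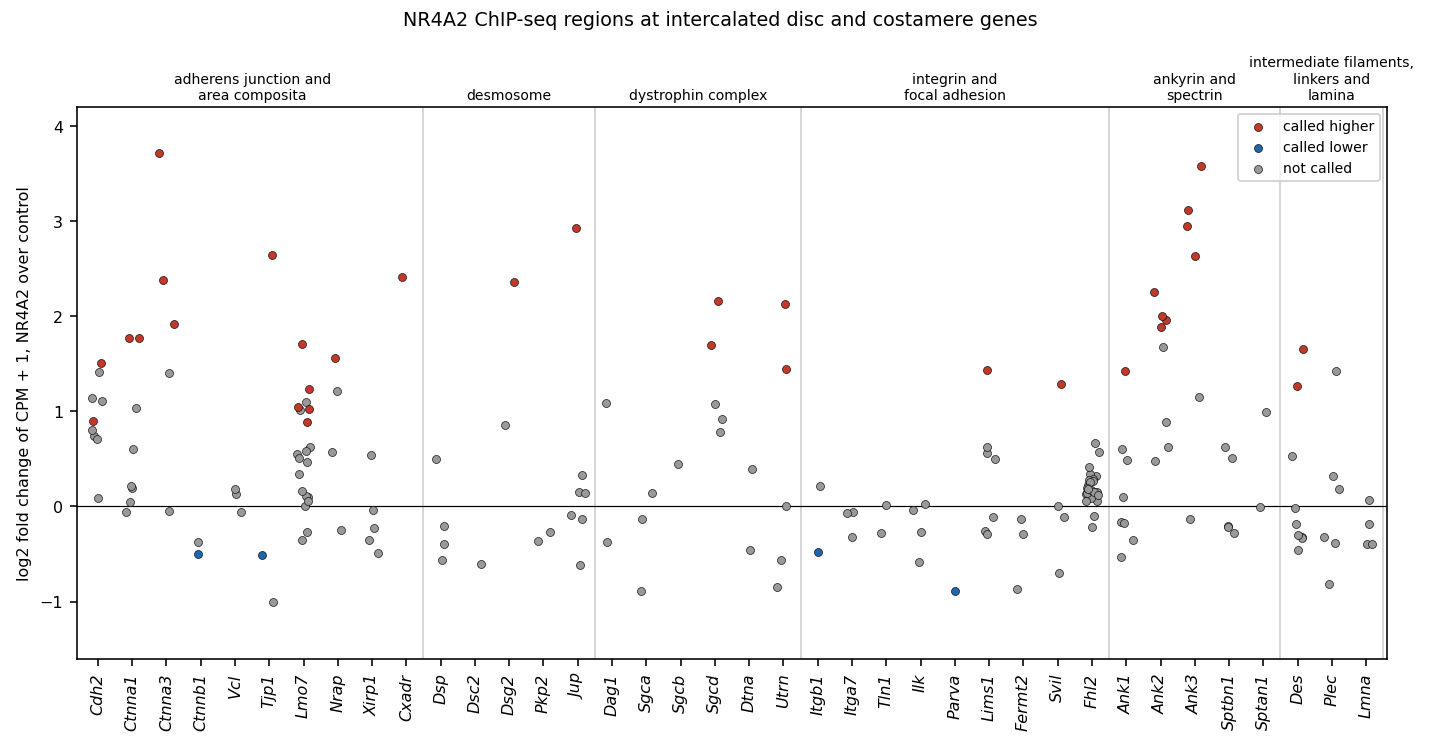
Log2 fold change of CPM + 1 (NR4A2 over control) of each of the 194 regions, by gene and grouped by structure. Points are regions, in red where called higher (34), blue where called lower (4) and grey where not called, and the red points reach 3.71 while the blue ones lie between -0.48 and -0.89.

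Of the 4 lower regions 3 covered an annotated start of their gene, and these starts are shown with the only promoter entry of the list that a higher region touched. The sequences are the 250 bases before the start, from RefSeq (GRCm38.p6), written 5′ to 3′ along the gene. Capitals mark the GC box (GGGCGG on either strand), a common element of housekeeping promoters. Ctnnb1 lies on the plus strand (chr9:120933150-120933399), as do Itgb1 (chr8:128685404-128685653) and the internal start of Lmo7 (chr14:101840373-101840622), while Tjp1 lies on the minus strand (chr7:65371245-65371494, an internal start).
Ctnnb1, lower: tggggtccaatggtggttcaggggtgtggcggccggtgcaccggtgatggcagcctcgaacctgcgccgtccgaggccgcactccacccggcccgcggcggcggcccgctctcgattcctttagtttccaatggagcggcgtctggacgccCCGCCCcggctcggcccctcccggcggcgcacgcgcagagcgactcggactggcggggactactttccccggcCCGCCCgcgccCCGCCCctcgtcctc
Tjp1, lower: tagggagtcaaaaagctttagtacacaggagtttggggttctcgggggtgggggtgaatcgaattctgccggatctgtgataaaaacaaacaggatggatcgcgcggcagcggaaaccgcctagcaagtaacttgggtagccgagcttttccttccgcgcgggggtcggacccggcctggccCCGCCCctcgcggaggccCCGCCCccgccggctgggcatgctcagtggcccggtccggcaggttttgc
Itgb1, lower: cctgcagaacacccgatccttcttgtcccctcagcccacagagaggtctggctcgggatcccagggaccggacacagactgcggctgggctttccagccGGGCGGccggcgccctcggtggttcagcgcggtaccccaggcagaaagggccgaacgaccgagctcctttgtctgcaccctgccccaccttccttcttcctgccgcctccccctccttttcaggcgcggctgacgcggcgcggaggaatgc
Lmo7 internal start, higher: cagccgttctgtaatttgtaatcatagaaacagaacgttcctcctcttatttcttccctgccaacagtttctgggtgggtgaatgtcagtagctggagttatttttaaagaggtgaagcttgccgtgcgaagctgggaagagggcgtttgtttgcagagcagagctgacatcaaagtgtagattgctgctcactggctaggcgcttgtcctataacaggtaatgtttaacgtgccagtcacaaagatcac
The Ctnnb1 sequence holds 3 GC boxes, Tjp1 holds 2, Itgb1 holds 1 and the Lmo7 start holds 0, and the GC contents are 74.8%, 63.2%, 68.0% and 46.0% in that order. The higher region covers 158 of the 250 bases shown for Lmo7 (0.89 ± 0.32, adjusted p = 0.0358). Its call was lost in 5 of the 6 fits without 1 mouse, with edgeR and with DESeq2 on recovered reads, with no scaling and under the filter on mean CPM. Promoter entries were found for 27 of the 43 genes, 42 entries in all, of which 24 were touched by a region: 1 by the higher region of Lmo7, 4 by the lower regions (Ctnnb1 has 2 entries) and 19 by uncalled regions with log2 fold changes of -0.89 to 0.57. The GC box was present in 23 of the 42 entries (54.8%) and in 32.7% of 32851 mouse promoter windows of the same length. Entries touched by uncalled regions held from 0 GC boxes, as at Tln1, to 5, as at Fermt2 and Sptan1. The median GC content was 66.8% over the 24 touched entries and 52.4% over all windows. The NBRE (AAAGGTCA, either strand) was in 0 of 42 entries and in 1.34% of all windows. Its core AGGTCA, which every NBRE contains, was in 5 entries (11.9%), those of Cav3, Ctnna3, Lmna, Sptbn1 and Utrn, against 14.0% of all windows. Such letter matches describe these windows and are not evidence of binding or of its absence.

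Adherens junction and area composita genes held 60 regions. Of these 15 (25.0%) were higher and 2 (3.33%) lower, against 14.7% and 3.17% of all regions. Within 1 kb of a gene end (either boundary of the span of a protein-coding gene) lay 23.3% of the 60, against 48.1% of all regions. A higher region was found at 7 of the 10 genes. Among the 60, the largest log2 fold change was at Ctnna3, which encodes αT-catenin, the α-catenin of the area composita. Its region at chr10:63561765-63562098, inside the gene and 104254 bp from the nearest annotated start of the gene, had 19.1, 23.6 and 53.0 CPM in the NR4A2 mice, against 2.05, 2.92 and 0 CPM in the control mice. All NR4A2 mice lay above all control mice, with mouse 3 highest (log2 fold change 3.71 ± 0.77 SE, adjusted p = 1.26e-04, limma, n = 3 each). The control values were 2, 3 and 0 reads, so the size of this change depends on the 1 added to the CPM. It was 4.17 with 0.5 added and 2.39 with 5 added. Ctnna3 spans 1574 kb, and 3 of its 5 regions were higher. The others had log2 fold changes of 2.38 and 1.92, and the call of the last was lost without NR4A2 mouse 3 (adjusted p = 0.0531).

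Ctnna1, which encodes αE-catenin, the catenin that ties cadherins to actin, had 2 higher regions among 8. At chr18:35148464-35149137 the NR4A2 mice had 59.2, 67.8 and 97.1 CPM and the control mice 21.5, 17.5 and 23.5 CPM, with no overlap (1.77 ± 0.31, adjusted p = 9.08e-06). The other region, nearer to the lower-coordinate end of the gene, had a log2 fold change of 1.77 as well. At Cdh2, encoding N-cadherin, the main cadherin of the disc, all 9 regions had fold changes above 0 and 2 of them passed the test (0.90 and 1.51). The stronger of these changes, at chr18:16805671-16806175, was 32.5, 52.0 and 59.3 CPM in NR4A2 hearts and 22.5, 15.6 and 10.9 CPM in control hearts (adjusted p = 0.00184). With no scaling both calls were lost (adjusted p = 0.307 and 0.0611), and without NR4A2 mouse 3 the weaker one was lost (adjusted p = 0.126). Here and at the other genes, regions of a gene share the same libraries, so counts of fold changes above 0 are a description. Cxadr, the coxsackievirus and adenovirus receptor of cell junctions, had 1 region, and it was higher: 21.0, 37.8 and 47.9 CPM in NR4A2 hearts against 9.22, 8.76 and 1.81 CPM in control hearts (2.41 ± 0.53, adjusted p = 3.37e-04).

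Lmo7, a LIM-domain protein of cell junctions, held 20 regions within or near 205 kb. Of these 5 were higher, with log2 fold changes of 0.89 to 1.70, and 18 of the 20 had fold changes above 0, with a median of 0.53. The region with the smallest adjusted p (chr14:101872780-101873359) had 53.5, 96.2 and 71.9 CPM in NR4A2 hearts and 27.7, 39.9 and 36.2 CPM in control hearts. The groups did not overlap there (1.05 ± 0.28, adjusted p = 0.00403), but the call was lost without NR4A2 mouse 2 (adjusted p = 0.0714). Each of the other 4 calls at Lmo7 was lost in 3 to 5 of the 6 fits that left out 1 mouse. Nrap, the nebulin-related anchoring protein of the disc, had 1 higher region among 4 (1.56 ± 0.47, adjusted p = 0.00999). The call was lost without NR4A2 mouse 1 (adjusted p = 0.0669), without NR4A2 mouse 3 (0.0801) and with no scaling (0.0957).

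Tjp1, encoding the scaffold ZO-1, had signal that differed in both directions at different places of the gene. At its internal start the NR4A2 mice had 132, 126 and 151 CPM and the control mice 203, 193 and 186 CPM (chr7:65370700-65371632). All NR4A2 mice lay below all control mice (-0.51 ± 0.18, adjusted p = 0.0332). At chr7:65466270-65466540, in the same gene, the NR4A2 mice had 23.9, 25.2 and 42.9 CPM and the control mice 6.15, 4.87 and 1.81 CPM (2.64 ± 0.59, adjusted p = 4.09e-04). The region over the start of Ctnnb1, encoding β-catenin, had 285, 208 and 188 CPM in NR4A2 hearts and 346, 280 and 324 CPM in control hearts. NR4A2 mouse 1 was above control mouse 2, so the groups overlapped although the region was called lower (-0.50 ± 0.16, adjusted p = 0.0222). Vcl, encoding the actin linker vinculin, had 3 regions with log2 fold changes of -0.06 to 0.18 (smallest adjusted p 0.839). Xirp1, an actin-binding Xin-repeat protein, had 5 of -0.49 to 0.54 (smallest adjusted p 0.100). Neither had a called region.

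**Figure D2:**
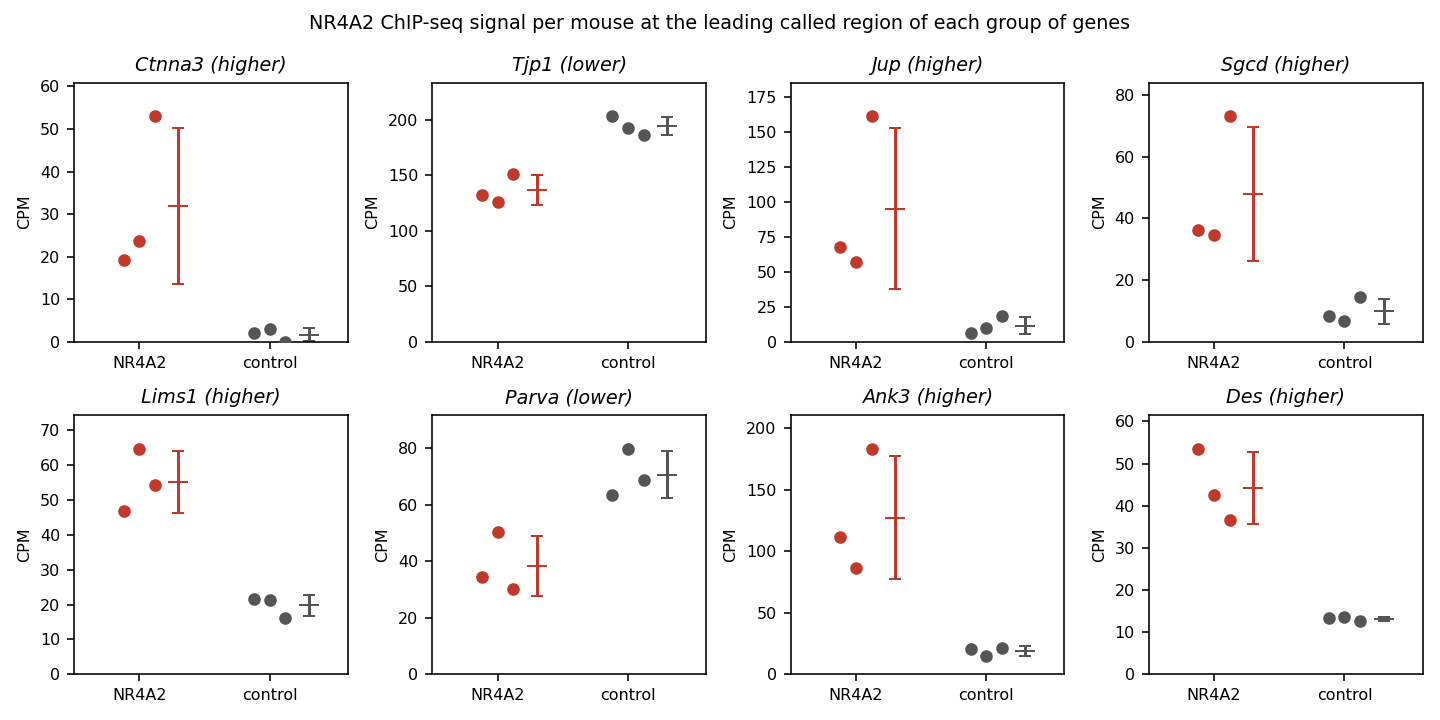
CPM in each mouse at 8 called regions: with each gene represented by its called region of smallest adjusted p, the one of most extreme fold change for each structure and direction. Points are mice, NR4A2 left and control right, with the mean and SD (n = 3 each). In all 8 regions the groups do not overlap, but these were chosen for being called and extreme. The same holds for 32 of the 34 higher and 3 of the 4 lower regions.

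Desmosome genes held 16 regions, of which 2 (12.5%) were higher and none lower, against 14.7% and 3.17% of all regions. Downstream of Jup, which encodes plakoglobin, a component shared by desmosomes and adherens junctions, the region at chr11:100364289-100364749 had 67.8, 56.7 and 161 CPM in NR4A2 hearts and 6.15, 9.73 and 18.1 CPM in control hearts. NR4A2 mouse 3 was far above the other NR4A2 mice, and all 3 were above every control mouse (2.93 ± 0.38, adjusted p = 1.17e-08). The region is 4107 bp beyond the end of Jup and also within 10 kb of Hap1, so the rule does not assign it to Jup alone. The other 6 regions of Jup were not called. Dsg2, the desmosomal cadherin desmoglein-2, had a higher region inside the gene with 30.6, 12.6 and 25.2 CPM in NR4A2 hearts and 4.10, 4.87 and 1.81 CPM in control hearts (2.36 ± 0.67, adjusted p = 0.00699). That call was lost without NR4A2 mouse 1 or NR4A2 mouse 3 (adjusted p up to 0.0848). Desmoplakin (Dsp, smallest adjusted p 0.294), desmocollin-2 (Dsc2, 0.312) and plakophilin-2 (Pkp2, 0.493) had no called region, and their regions with the smallest adjusted p had log2 fold changes of -0.56, -0.60 and -0.37.

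The dystrophin complex, which links actin to laminin outside the cell, held 18 regions at 6 of its 9 genes. Of these 4 (22.2%, against 14.7% of all regions) were higher, at Sgcd and Utrn, and none was lower. Within 1 kb of a gene end lay 22.2% of the 18, against 48.1% of all regions. Sgcd encodes δ-sarcoglycan, whose loss causes cardiomyopathy, and 2 of its 5 regions were higher while all 5 had fold changes above 0. The region at chr11:47035734-47036115 had 36.3, 34.7 and 73.2 CPM in NR4A2 hearts and 8.20, 6.81 and 14.5 CPM in control hearts, with no overlap (2.16 ± 0.43, adjusted p = 7.36e-05). In the other (1.70 ± 0.53, adjusted p = 0.0153) the groups overlapped, and the call was lost in 3 of the 6 fits without 1 mouse (adjusted p up to 0.211). Utrn encodes utrophin, the close relative of dystrophin, and had 1 higher region 8546 bp downstream of the gene (2.12 ± 0.58, adjusted p = 0.00455) and 1 inside it (1.45 ± 0.53, adjusted p = 0.0427). The first had 17.2, 30.0 and 31.5 CPM in NR4A2 hearts against 2.05, 7.79 and 7.24 CPM in control hearts, and its call was lost without NR4A2 mouse 3 (adjusted p = 0.0532). In the second the groups overlapped, and its call was lost in 4 of the 6 fits without 1 mouse (adjusted p up to 0.324). Dystroglycan (Dag1), the laminin receptor of the complex, had log2 fold changes of -0.37 and 1.08 in its 2 regions (smallest adjusted p 0.167). The sarcoglycans Sgca (-0.89, adjusted p = 0.162) and Sgcb (0.44, adjusted p = 0.342) and the dystrobrevin Dtna (-0.46, adjusted p = 0.459) had no called region. Dystrophin itself (Dmd), the longest gene of the list at 2390.4 kb, had no region, nor had the syntrophin Sntb1 or caveolin-3 (Cav3).

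Integrin and focal adhesion genes held 52 regions, of which 2 (3.85%) were higher and 2 (3.85%) lower, against 14.7% and 3.17% of all regions. Of the 52, 26 were at Fhl2. The complex of ILK, PINCH and parvin binds the tails of integrins. Of its genes, Lims1, encoding PINCH-1, had 1 higher region among 7. Its region over an annotated start was not called (-0.11, adjusted p = 0.813). Parva, encoding α-parvin, had a lower region. The 4 regions at Ilk, the kinase-like core, were not called (-0.58 to 0.03, smallest adjusted p 0.364). The higher region of Lims1 (chr10:58396626-58397025) had 46.8, 64.6 and 54.2 CPM in NR4A2 hearts and 21.5, 21.4 and 16.3 CPM in control hearts. Both groups were tight and apart (1.44 ± 0.34, adjusted p = 8.75e-04), and the call held with each mouse left out but not without scaling (adjusted p = 0.0626). The Parva region, 131 bp from an end of the gene (chr7:112427837-112428388), had 34.4, 50.4 and 30.3 CPM in NR4A2 hearts and 63.5, 79.8 and 68.8 CPM in control hearts. All NR4A2 mice were below all control mice (-0.89 ± 0.28, adjusted p = 0.0141), and this was the only region of the gene.

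The region over the start of Itgb1, encoding the β1 integrin chain, had 165, 147 and 179 CPM in NR4A2 hearts and 232, 191 and 268 CPM in control hearts, without overlap (-0.48 ± 0.17, adjusted p = 0.0393). Svil, encoding the actin-binding protein supervillin, had 1 higher region among 4: 72.6, 37.8 and 41.6 CPM in NR4A2 hearts against 25.6, 15.6 and 18.1 CPM in control hearts (1.28 ± 0.36, adjusted p = 0.00527). This call was lost without NR4A2 mouse 1 (adjusted p = 0.111). Talin-1 (Tln1, smallest adjusted p 0.724), the laminin-binding chain Itga7 (0.638) and kindlin-2 (Fermt2, 0.204) had none, with log2 fold changes of -0.28, -0.32 and -0.87 in those regions. All 4 lower calls of the list depended on the setting. Each was lost in 3 to 5 of the 6 fits without 1 mouse, and DESeq2 on recovered reads kept only that of Parva. All were lost with no scaling for depth (adjusted p 0.311 to 0.729). Their log2 fold changes were then -0.50 to -0.91, against -0.48 to -0.89 with scaling. The regions called higher in the whole table took 12.6 to 15.1% of the CPM of each NR4A2 heart and 4.58 to 5.10% of that of each control heart, and the part of this shift in the lower calls was not tested.

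Fhl2, a LIM-domain protein that binds integrins and titin, differed from the rest of the list in the shape of its signal. Its 26 regions covered 67.4 kb, or 89.5%, of the 75.3-kb gene, and the longest was 10841 bp. Signal density was 62.4 to 136 CPM per kb, with a median of 79.5, close to the median of 84.7 CPM per kb over all regions. Summed over the regions, Fhl2 had 6521, 7957 and 6088 CPM in NR4A2 hearts and 6715, 6645 and 4846 CPM in control hearts. NR4A2 mice 1 and 3 lay within the range of the control mice, so the groups overlapped. No region was called (smallest adjusted p 0.0985, 2 with an unadjusted p under 0.05). Fold changes were above 0 in 24 of 26, with a median of 0.17, but these regions adjoin and share the same libraries. NR4A2 mouse 2 was the highest of its group in 21 of the 26, and control mouse 3 the highest of its group in 2. The region over its start, 9339 bp long, had the highest summed signal of the list, with 1306, 1482 and 1269 CPM in NR4A2 hearts and 1256, 1339 and 992 CPM in control hearts. Per kb it reached 136 CPM, below the 435 CPM per kb at the start of Ctnnb1. Without Fhl2, 20.2% of the remaining 168 regions were higher and 2.38% lower. The input libraries were not analysed here.

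**Figure D3:**
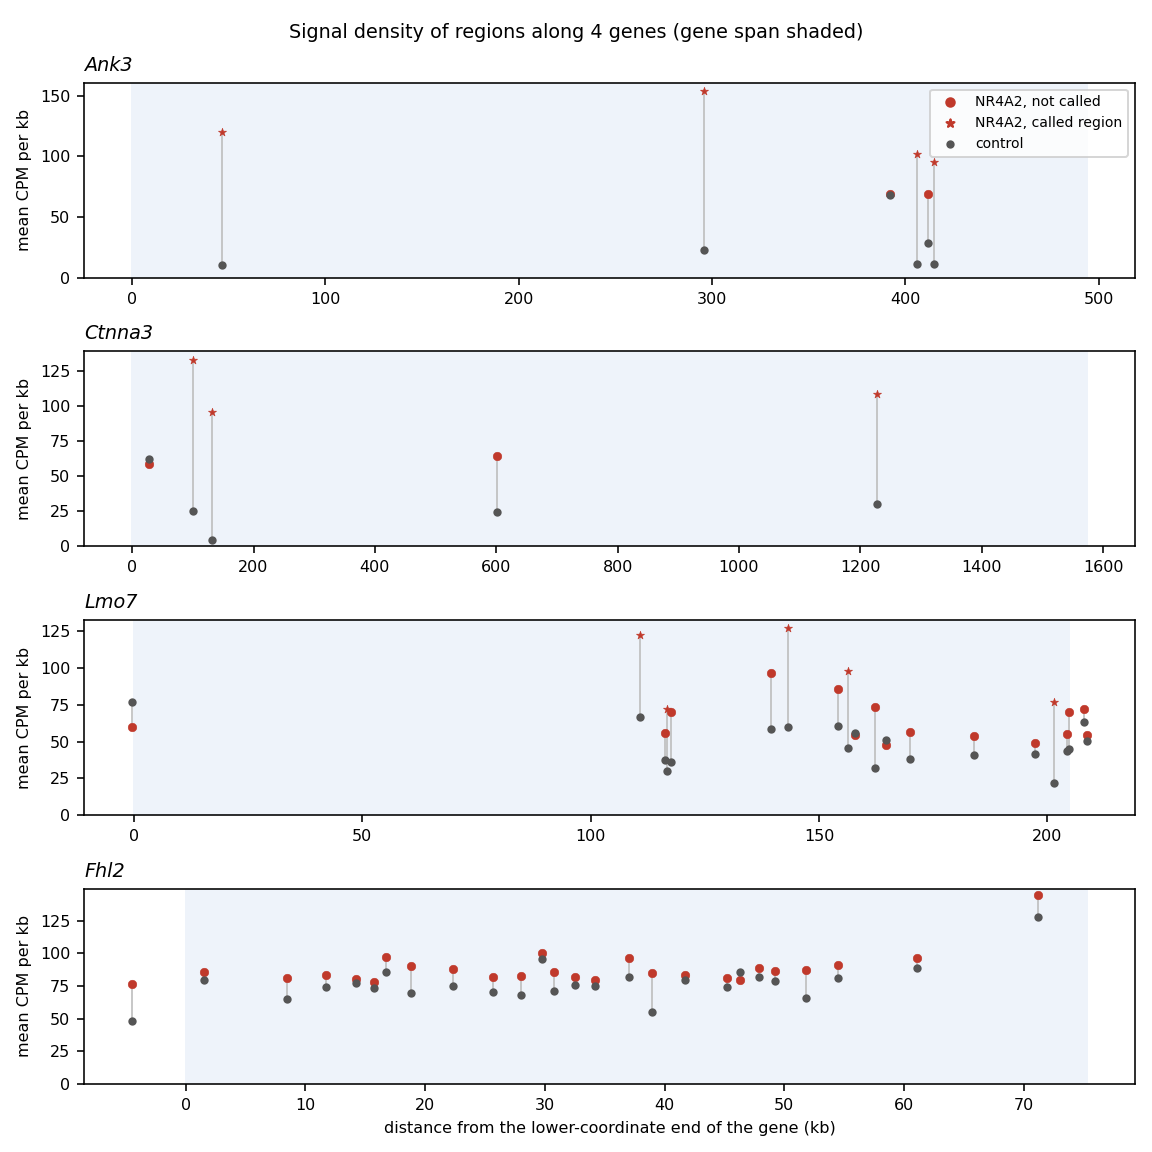
Mean CPM per kb of each region along 4 genes, by distance in kb from the lower-coordinate end of the gene (span shaded), in NR4A2 hearts (red, a star where the region was called) and control hearts (grey). Stars mark 4 of 6 regions at Ank3, 3 of 5 at Ctnna3, 5 of 20 at Lmo7 and 0 of 26 at Fhl2, whose regions follow one another along most of the gene.

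Ankyrin and spectrin genes had 9 higher regions among 29 (31.0%) and none lower, against 14.7% and 3.17% of all regions. All 9 were at the ankyrins. Within 1 kb of a gene end lay 13.8% of the 29, against 48.1% of all regions. Ankyrins tie ion channels and transporters to the spectrin network under the membrane. At Ank3, encoding ankyrin-G, which holds the cardiac sodium channel at the disc, 4 of 6 regions were higher, with log2 fold changes of 2.63 to 3.57. The region at chr10:69828823-69829649 had 112, 86.7 and 183 CPM in NR4A2 hearts and 20.5, 14.6 and 21.7 CPM in control hearts. The lowest NR4A2 mouse was well above the highest control mouse (2.63 ± 0.29, adjusted p = 2.29e-11), and this was the smallest adjusted p of the list. Further along the gene, the region at chr10:69948093-69948988 had 88.8, 66.2 and 102 CPM in NR4A2 hearts and 4.10, 8.76 and 18.1 CPM in control hearts (3.12 ± 0.39, adjusted p = 1.75e-09). The largest fold change at Ank3 (3.57 ± 0.64, adjusted p = 1.65e-05) was at chr10:69579609-69579993, with 22.9, 78.8 and 36.6 CPM in NR4A2 hearts and 8.20, 0 and 3.62 CPM in control hearts. The fourth (2.95 ± 0.84, adjusted p = 0.00662) was lost without NR4A2 mouse 3 (adjusted p = 0.107). A further region of the gene had 106, 107 and 36.6 CPM in NR4A2 hearts and 82.0, 86.6 and 77.8 CPM in control hearts. There NR4A2 mouse 3 was the lowest of all 6 mice, the groups overlapped and no difference was called (-0.13 ± 0.28, adjusted p = 0.806).

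At Ank2, encoding ankyrin-B, which organises the sodium-calcium exchanger and the sodium pump, 4 of 8 regions were higher and all 8 had fold changes above 0. The 4 had log2 fold changes of 1.88 to 2.25. That with the smallest adjusted p (chr3:127130469-127131133) had 69.7, 52.0 and 76.9 CPM in NR4A2 hearts and 12.3, 20.4 and 16.3 CPM in control hearts, without overlap (1.96 ± 0.34, adjusted p = 6.68e-06). Another region, 1980 bp from an annotated start (chr3:127496694-127497135), had 36.3, 50.4 and 50.5 CPM in NR4A2 hearts against 8.20, 8.76 and 16.3 CPM in control hearts (2.00 ± 0.41, adjusted p = 1.39e-04). Both held with each mouse left out, and the remaining calls at Ank2 (adjusted p = 0.0146 and 0.0355) were lost in 3 and 4 of those 6 fits. Ank1, best known as the ankyrin of red blood cells, had 1 higher region among 8, also within 10 kb of Nkx6-3 (1.42 ± 0.43, adjusted p = 0.0106, and 0.0872 without NR4A2 mouse 2). The spectrins Sptbn1 (0.51, smallest adjusted p 0.275) and Sptan1 (0.99, 0.121) had no called region.

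Among intermediate filaments, linkers and the lamina, 2 of 19 regions (10.5%) were higher and none lower, against 14.7% and 3.17% of all regions. Both lay downstream of Des, which encodes desmin, the intermediate filament that ties sarcomeres to desmosomes and costameres. At chr1:75371344-75371686 the NR4A2 mice had 53.5, 42.6 and 36.6 CPM and the control mice 13.3, 13.6 and 12.7 CPM. The groups were far apart and the control mice nearly equal (1.65 ± 0.39, adjusted p = 9.41e-04). The neighbouring region, 1734 bp beyond the gene, had 75.4, 63.1 and 58.0 CPM in NR4A2 hearts against 33.8, 25.3 and 21.7 CPM in control hearts (1.27 ± 0.30, adjusted p = 0.00108). Both are also within 10 kb of Speg, a kinase gene of striated muscle. The other 7 regions of Des were not called. Plectin (Plec, smallest adjusted p 0.0844), which cross-links desmin to other structures, had 6 regions with log2 fold changes of -0.81 to 1.42, and lamin A/C (Lmna, 0.159) had 4 of -0.39 to 0.07. Neither had a called region, and Synm, the desmin partner synemin, had no region.

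The higher regions lay away from gene ends, meaning either boundary of the span of a protein-coding gene. Internal starts are not gene ends, so the higher region over the internal start of Lmo7 counts as 93786 bp away. Of the 47 regions within 1 kb of the end of a protein-coding gene, 0 were higher and 3 (6.38%) lower. Between 1 and 10 kb 9 of 51 (17.6%) were higher, and beyond 10 kb 25 of 96 (26.0%). Over all regions the shares higher were 2.31%, 16.2% and 32.8% at these distances, and 4.02% were lower within 1 kb. Leaving out Fhl2, 25 of 75 distant regions (33.3%) were higher. Of the 34 higher regions 30 lay inside the span of their gene and none overlapped another protein-coding gene, while 5 were also within 10 kb of one.

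**Figure D4:**
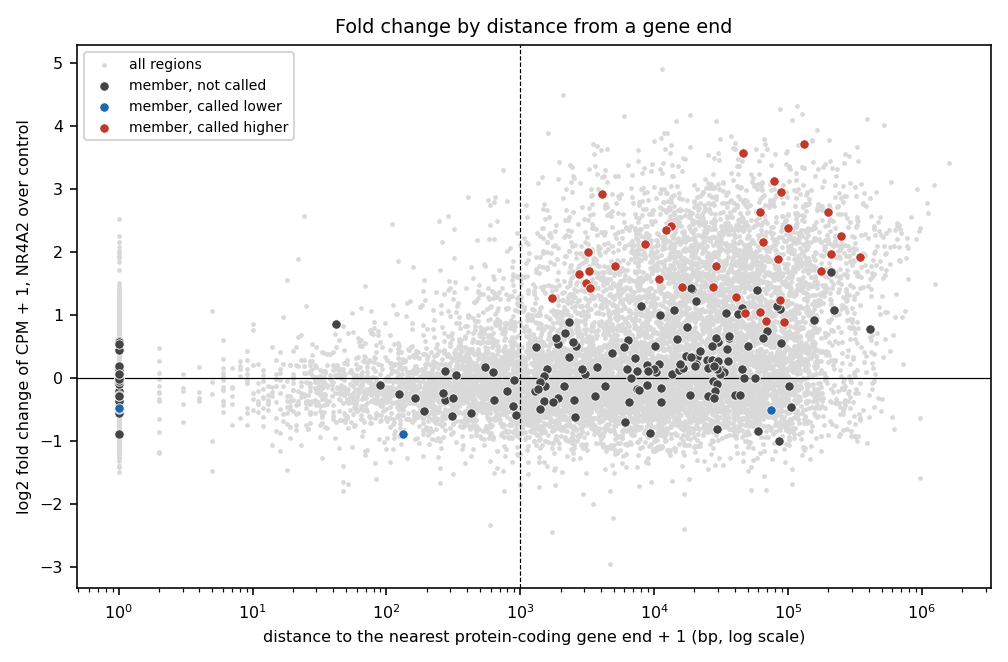
Log2 fold change of CPM + 1 (NR4A2 over control) against the distance to the nearest protein-coding gene end plus 1 bp, on a log axis, for all 16884 regions (light grey) and the 194 regions of the disc and costamere genes (dark grey, red where higher, blue where lower). The dashed line marks 1 kb, and 0 of the 34 red points lie to its left.

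Longer genes with more regions more often had a higher one. The higher regions are themselves counted in the number of regions, and more regions give more chances of a call. The median span was 199 kb for the 17 genes with a higher region and 47.9 kb for those with regions but none higher. Dmd (2390 kb), Tln2 (417 kb) and Sntb1 (271 kb) held no region and are in neither group. With 1 region per gene, 1 of 4 genes of the list had a higher region, against 5.32% of all genes. With 2 to 3 regions the numbers were 2 of 13 and 19.3%, with 4 to 6 regions 6 of 12 and 35.7%, with 7 to 10 regions 7 of 7 and 50.7%, and with 11 or more 1 of 2 and 71.2%. Lower regions were found at 1 gene with 1 region and at 3 genes with 2 to 3, where 3.61% and 7.47% of all genes had one. These counts are a description, since the genes were listed with earlier results of these data known.

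**Figure D5:**
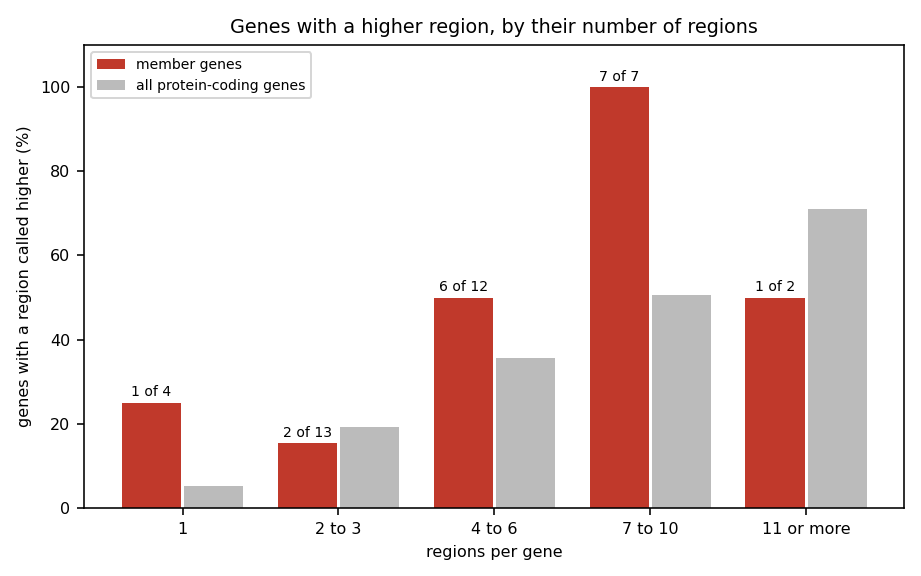
Percent of genes with at least 1 region called higher, by the number of regions per gene, for the 38 listed genes with a region (red) and all 11151 protein-coding genes with a region (grey). The grey bars climb to 71.2%, and the red bars, which rest on the gene numbers printed above them, are above the grey ones in 3 of the 5 classes, those with 1, 4 to 6 and 7 to 10 regions.

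NR4A2 mouse 3 had the highest signal of its group in 20 of the 34 higher regions, and mice 1 and 2 in 7 each. Summed over the 34, the NR4A2 mice had 1485, 1499 and 2014 CPM and the control mice 459, 467 and 492 CPM, a description of regions chosen for being higher. Without NR4A2 mouse 3, 20 regions of the list were higher and 1 lower. The calls of 17 of the 38 regions, all higher, held with each mouse left out in turn, among them those at Ctnna1, Jup, Cxadr and Des. The higher calls lost with no scaling for depth were both at Cdh2, all 5 at Lmo7, 2 at Ank2 and 1 each at Nrap, Sgcd, Utrn, Lims1, Svil, Ank1 and Des. The direction of each of the 38 called regions was kept in every one of the 14 settings that tested it. The filter on mean CPM tested only 80 of the 194 regions and left out many of the called ones.

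Another 40 genes of these structures and of the neighbouring Z-disc were also examined. Of these 38 held 211 regions, with 25 (11.8%) higher and 8 (3.79%) lower, at 11 and 7 genes, against 14.7% and 3.17% of all regions. Lower regions were at Fblim1, Pxn, Synpo2l, Popdc2, Sntb2, Lims2 and Dysf. The 6 genes with the smallest adjusted p all had higher regions. Tmem65, a membrane protein of the disc, had 59.2, 64.6 and 85.8 CPM in NR4A2 hearts against 13.3, 14.6 and 18.1 CPM in control hearts, in a region 1814 bp outside the gene (2.11 ± 0.34, adjusted p = 1.31e-06). Lama2, the laminin chain to which dystroglycan and integrins bind, had 33.4, 33.1 and 51.7 CPM in NR4A2 hearts and 5.12, 9.73 and 14.5 CPM in control hearts (1.98 ± 0.45, adjusted p = 5.12e-04). In both the groups did not overlap. Nebl, a nebulin relative of the Z-disc, had a log2 fold change of 1.36 (adjusted p = 0.00119) and Pdlim5, a PDZ and LIM protein of the Z-disc, 0.86 (adjusted p = 0.00226). The Z-disc proteins Csrp3 (1.02, adjusted p = 9.40e-08) and Ldb3 (1.06, adjusted p = 4.09e-06) had 4 of 8 and 5 of 23 regions higher. Binding near a gene was measured here, and the expression of these genes was not.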

How the data were processed

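NR4A2 ChIP-seq of heart ventricle was analysed in 3 NR4A2 and 3 control mice. The other 3 of the 9 samples (antibody test ChIP and input, pooled input) were not analysed here. Each reaction held 30 µg of chromatin, 5.5 µg of antibody and 200 ng of fly chromatin with 0.4 µg of a fly histone antibody as spike-in, per the labels' protocols. Reads were aligned with BWA to GRCm38 (mm10), per the submitters' processing notes. How regions were called, merged and filtered, and how the spike-in was used, is not given here.

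The authors deposited CPM for each mouse and region. Per the file headers, the table also gives a log2 fold change, a log2 mean CPM, a p-value and an FDR for each region, made by the authors. No per-sample column was left unmatched. Whole read counts were recovered from the deposited CPM (100% of values whole within 0.001 read). The edgeR quasi-likelihood test on these reads called 2530 regions higher and 543 lower.

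Differences were tested with limma 3.58.1 (R 4.3.3, trend and robust moderation) on log2(CPM + 1) over all 16884 regions, with genotype as the only term, no filter and Benjamini-Hochberg adjustment at 0.05. This scale understates changes of weak regions. The code was tested on simulated data. edgeR 4.0.16, DESeq2 1.42.0, other pseudocounts, filters, scaling and gene rules, the authors' calls and leaving out each mouse were alternatives. The members, lists and tests were chosen with earlier results of these data known. Every member is accounted for by its called region of smallest adjusted p in each direction, or else its region of smallest adjusted p. Among the called regions so chosen, values per mouse are given at least for the one with the most extreme fold change in each structure and direction. Of the related genes, the 6 of smallest adjusted p are named. Gene spans are RefSeq GRCm38.p6, and exons and introns were not told apart. At the median, a region held 20 to 40 reads per library, and 3 reads equalled 2.86 to 5.43 CPM.

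Mouse numbers are shared between groups, and the correlations between same-numbered mice of their deviations from the group means were -0.0658, 0.0609 and 0.0326, so the mice were not treated as pairs.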

Additional observations from a re-analysis of the deposited data

How the results depend on the processing

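Counts are given as higher and lower, against 2475 and 536 for all regions, 34 and 4 for the regions of the list and 17 and 4 for its genes. With the 8442 regions of at least median mean CPM alone, which leave 80 regions of the list, the counts were 481 and 235, 10 and 1, and 8 and 1. With no scaling for depth they were 1398 and 14, 18 and 0, and 11 and 0. DESeq2 on recovered reads gave 251 lower regions in all, 1 in the list and 1 gene. The authors' deposited table gave 2 lower regions and 2 genes with one. Leaving out 1 mouse gave 1577 to 2332 higher and 270 to 454 lower regions in all, with both lowest counts without NR4A2 mouse 3, and 354 lower without control mouse 3. In the list it gave 20 to 32 higher regions at 14 to 18 genes and 1 to 5 lower regions at 1 to 5 genes. Lower regions were 1 without NR4A2 mouse 1 or 3, and 2 without NR4A2 mouse 2 or control mouse 2. The pseudocounts, edgeR, the gene rules and leaving out Fhl2 (chosen after seeing the data) kept all these counts within 1.5 times. Mouse number as a replicate block gave 2540 and 580, and 34 and 4 in the list, with no call of the list changed. Mice share only a number: the best match of NR4A2 mouse 1 was control mouse 3 (0.0703). Of 525 values of the 39 named regions under alternatives, 478 kept the state of the main test, called or uncalled. The 41 that lost a call were all at the 21 called regions, as the other 18 had none to lose. Another 5 gained a call and 1 turned its direction. The last was at the uncalled Vcl region, 0.18 with all mice. It was -0.25 without control mouse 3 (adjusted p = 0.795, limma) and up to 0.44 without another mouse. The cause of these changes was not tested in any setting. Depth limits what can be called in regions with few reads, most of all in control mouse 3.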
